A study of Canis lupus familiaris with 51 samples.

Results

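Enzymes that make the building blocks of DNA were examined in 51 canine cutaneous mast cell tumors (MCTs), a skin cancer of dogs that arises from mast cells. The set has 9 genes (TYMS, TK1, RRM1, RRM2, DUT, DTYMK, CAD, UMPS and CTPS), and its members were found as array probes named for the gene or, in the description, for the enzyme. Of the 43603 probes on the array, 13 probes were found, for 7 genes. No probe was found by this rule for DUT, which removes dUTP, or for CTPS, which makes CTP, and neither is described here.

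Each tumor is represented here by 1 Agilent Canine V2 4x44k array, hybridized with a single dye to RNA from the center of the mass. The study also hybridized the RNA of some samples a second time, as technical replicates. The 18 reference tumors were 5 undifferentiated and 13 differentiated MCTs, chosen by the pathologists on histological grade and mitotic index, a count of dividing cells. The other 33 tumors were placed by the study in a class from the expression of marker genes on these same arrays, 7 as undifferentiated and 26 as differentiated, and are called predicted tumors below. The deposited labels give the case but not the class, so that each class was taken from the study by case number, and case LM0 was placed among the reference undifferentiated tumors by elimination. The dogs were 3 to 14 years old where age is given (49 dogs), 30 female and 19 male, with the sex of the others not given. The study reports dogs of various pure breeds and cross-bred dogs, and breed was not used in the comparisons here. All tumors were spontaneous. Between 59.4% and 74.8% of the spots of an array were well above background, and r between arrays ran from 0.907 to 0.988. A level is the log2 of the spot's processed signal after quantile normalization, and a difference is undifferentiated minus differentiated on the log2 scale. Because cells were not separated, fewer cells of a type and less RNA per cell cannot be told apart in these samples. As the tissue label says, the mast cell markers were high in every group: the mean level of KIT, CMA1, FCER1A and MS4A2 lay between 13.54 and 16.79.

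Cells make pyrimidine nucleotides from scratch or salvage them. CAD carries out the opening steps of the pathway and UMPS closes it by forming UMP. RRM1 and RRM2 are the large and the small subunit of ribonucleotide reductase, which turns ribonucleotides into deoxyribonucleotides. TYMS (thymidylate synthase) makes dTMP from dUMP, TK1 (the cytosolic thymidine kinase) makes dTMP from salvaged thymidine, and DTYMK phosphorylates dTMP on the way to dTTP. RRM2, TK1 and TYMS are known for rising when cells enter S phase, whereas RRM1 varies less over the cell cycle, and TYMS uses up a folate cofactor.

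The results below rest mostly on RRM2, TK1 and TYMS, and 4 of their 60-base probes are shown here 5′ to 3′ as the scanner files give them. RRM2 has a single probe on the array, whose match spans chr17:10081516-10083435 on the plus strand, far longer than the probe itself, so that the probe crosses an intron. The TK1 probes shown match chr9:5967211-5967270 and, across an intron, chr9:5966606-5966992. The TYMS probe shown matches chr7:70538084-70538143, and its last 3 bases, in capitals, read as a stop codon. The build of these coordinates is not named in the files.
RRM2 (A_11_P086641): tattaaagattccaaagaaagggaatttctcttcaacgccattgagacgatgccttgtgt
TK1 (A_11_P080761): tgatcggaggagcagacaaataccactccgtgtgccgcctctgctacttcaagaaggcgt
TK1 (A_11_P187303): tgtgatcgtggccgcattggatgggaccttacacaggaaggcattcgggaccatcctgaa
TYMS (A_11_P052931): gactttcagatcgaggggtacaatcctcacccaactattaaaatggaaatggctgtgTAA

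The other probes were 1 more for TK1 (A_11_P0000016427), 2 for RRM1 (A_11_P186083 and A_11_P186733, chromosome 21), 1 each for CAD (A_11_P0000027353, chromosome 17), UMPS (A_11_P0000023740, chromosome 33) and DTYMK (A_11_P00000656, chromosome 25), and 3 more probes described as thymidylate synthase. Of these, A_11_P172033 also matches chromosome 7, where RefSeq places TYMS, but A_11_P051996 matches chromosome 19 and A_11_P000002442 chromosome X. All but 2 of the 13 probes were well above background on all 51 arrays. The exceptions were RRM2, on 27 arrays, and the chromosome X probe, on 38. No member value was missing or saturated. Levels of different probes are not compared, since each probe has its own brightness.

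The 4 TYMS probes did not all report the same thing. Over the 39 differentiated tumors, the chromosome 19 probe followed the chromosome 7 probe A_11_P052931 closely (Pearson r = 0.925), and the other chromosome 7 probe did so less closely (r = 0.685). The chromosome X probe did not follow it (r = -0.143), and its level lay between 2.26 and 5.66 in those tumors. The same order held in the 12 undifferentiated tumors, with r = 0.975, 0.536 and 0.0565. These values are descriptions of probes hybridized in the same tumors. The probes of the other genes followed each other: over the 39 tumors r was between 0.855 and 0.932 for the 3 TK1 probes and 0.631 for the 2 RRM1 probes.

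**Figure D1:**
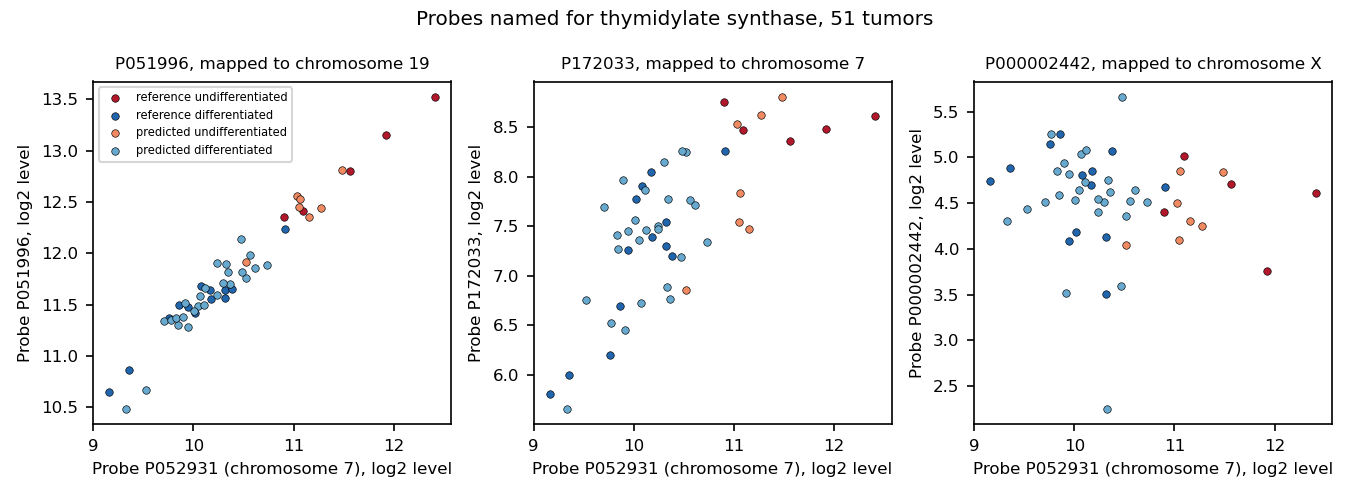
Level (log2) of 3 probes described as thymidylate synthase (y axes) against the level of probe A_11_P052931 on chromosome 7 (x axes), 1 point per tumor, coloured by group. Points lie near a line for the chromosome 19 probe (r = 0.925 over the 39 differentiated tumors), scatter for A_11_P172033 (r = 0.685) and form no line for the chromosome X probe (r = -0.143).

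RRM2 and TK1 had probes called higher in undifferentiated MCTs in both comparisons, and TYMS in the reference comparison only. The probes of RRM1, CAD, UMPS and DTYMK were also higher in both comparisons, but none was called. Of the 13 probes, 5 (38.5%) were called higher and 0 lower in the reference undifferentiated tumors, where a call is an adjusted p under 0.01 in limma with a fold of at least 2. They belong to RRM2, TK1 (2 probes) and TYMS (2 probes). Of all 43603 probes, 805 were called in that comparison (1.85%), 425 of them higher (0.975%) and 380 lower (0.871%). Among the predicted tumors 4 of the 13 (30.8%) were called, all higher and for RRM2 and TK1, beside 437 of all probes (1%), 323 of them higher (0.741%) and the rest lower (0.261%). The median difference of the 13 probes was 1.35 and 0.757, beside 0.0353 and -0.0419 over all probes. In the reference comparison 3 member probes did not overlap between the classes, against 0.825% of all probes in this direction, and in the predicted comparison 2 did not, against 0.18%. Without the limit on the fold, 8 member probes passed in the predicted tumors, against 1.35% of all probes in this direction.

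These counts have limits set by the design. The probes are not 13 independent measurements, since 3 belong to TK1 and 4 to TYMS. The reference classes were chosen with the mitotic index as a criterion. The predicted classes were drawn from expression on these arrays, so that the difference between them is not independent of genes that follow the markers, although no member is a marker gene.

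**Figure D2:**
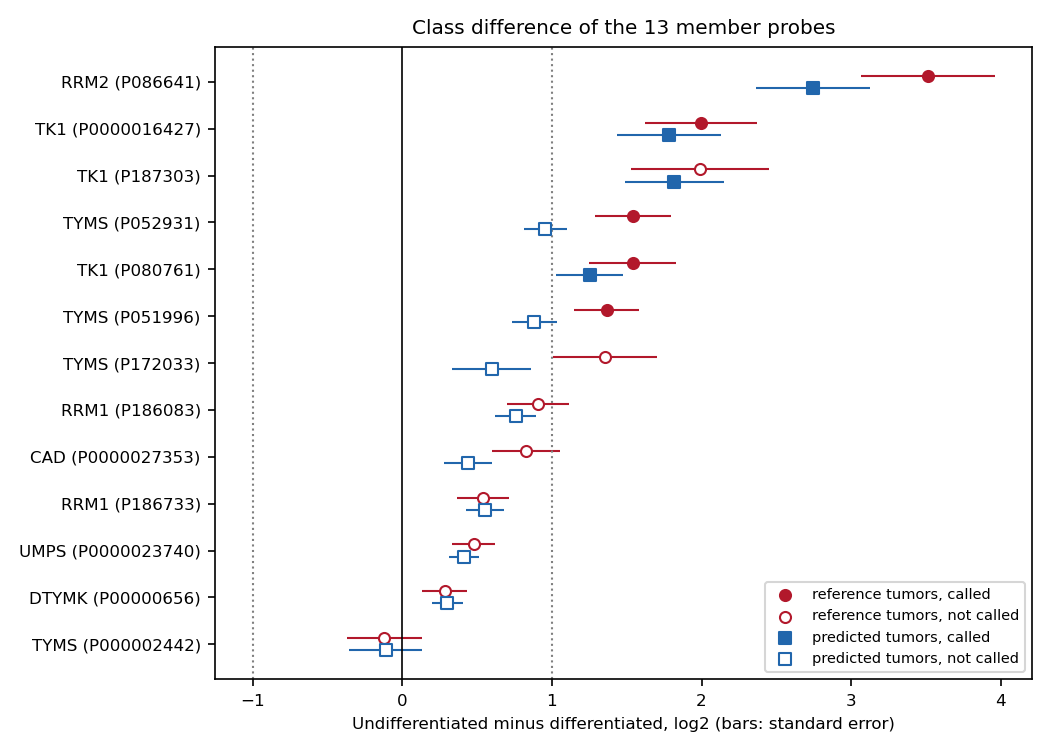
Difference between undifferentiated and differentiated tumors (x axis, log2) of the 13 member probes (y axis) in the reference tumors (circles) and the predicted tumors (squares), with the standard error as bars and dotted lines at a 2-fold change. Filled symbols are called probes: on this scale, without normexp correction, RRM2 stands farthest to the right in both comparisons, at 3.51 and 2.75, and the chromosome X probe of TYMS lies at -0.12 and -0.11.

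RRM2, the small subunit of ribonucleotide reductase, was higher in every undifferentiated tumor than in any differentiated one. Among the reference undifferentiated tumors its level was 7.46 in T9, 6.98 in T57, 6.91 in T73, 7.06 in T90 and 7.15 in LM0. In the 13 reference differentiated tumors the lowest level was 2.003, the median 3.88 and the highest 5.12, and the signal was well above background in 4 of them. No level of the differentiated group reached that of any undifferentiated tumor. The difference was 3.51 ± 0.447 (SE; 5 against 13 tumors), an 11.4-fold higher signal, with an adjusted p of 0.000174 in limma. Since most of the differentiated tumors were near background for this probe, the size of the fold depends on how background is treated: after normexp correction, which adds an offset to every signal, the difference was 1.05 with an adjusted p of 1.35e-06. RRM2 had the largest difference of the members without that correction, but with it TK1 (A_11_P0000016427, 1.79) and TYMS (A_11_P052931, 1.40) had larger ones.

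In the predicted tumors RRM2 was again higher in the undifferentiated class. Its level ran from 6.10 through a median of 6.63 to 7.30 in the 7 undifferentiated tumors and from 2.26 through 4.22 to 5.43 in the 26 differentiated ones, of which 11 were well above background. The groups did not overlap, and the difference was 2.75 ± 0.382, or 6.71-fold, with an adjusted p of 4.59e-05. Normexp correction brought it to 0.74 (adjusted p = 1.19e-07 in limma), under the limit of a 2-fold change. With that correction RRM2 was below the 3 TK1 probes (0.89 to 1.65) and the TYMS probes A_11_P051996 (0.84) and A_11_P052931 (0.89). Taking all 51 tumors, the lowest undifferentiated tumor lay 0.668 above the highest differentiated one, a separation that 54 of the 43300 probes with complete values showed in this direction (0.125%). No other member probe separated all the tumors.

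TK1, the salvage kinase, was also higher in undifferentiated MCTs, with all 3 probes. With A_11_P187303 the 5 reference undifferentiated tumors had levels of 7.69 (T9), 8.93 (T57), 8.65 (T73), 9.43 (T90) and 8.76 (LM0), and the 13 differentiated ones ran from 4.26 through a median of 6.72 to 8.59. The groups overlapped because of a single differentiated tumor, T84, which lay above T9. The differences were 1.996 ± 0.374 for A_11_P0000016427 (adjusted p = 0.0033, limma), 1.54 ± 0.291 for A_11_P080761 (adjusted p = 0.00347) and 1.99 ± 0.463 for A_11_P187303 (adjusted p = 0.0136, past the limit of 0.01 used for a call). The first 2 calls were lost without T90 (adjusted p = 0.0106 and 0.0132) and without LM0 (0.0106 and 0.0129). In the predicted tumors all 3 probes were called, with differences of 1.78 ± 0.346, 1.25 ± 0.224 and 1.82 ± 0.329 in the same order, and A_11_P0000016427 did not overlap between the classes, at 11.29 to 12.22 against 7.56 to 11.01. With sex as a covariate the calls of A_11_P0000016427 and A_11_P187303 were lost (adjusted p = 0.013 and 0.0105 in limma). That fit held only the tumors of known sex, so that the set of tumors changed too. With normexp correction A_11_P080761 was at 0.89, under 2-fold.

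TYMS, the target of fluoropyrimidine drugs, rose in the reference comparison with both of its bright probes. With A_11_P052931 the undifferentiated tumors had levels of 11.92 (T9), 11.09 (T57), 10.90 (T73), 11.56 (T90) and 12.41 (LM0), and the 13 differentiated tumors ran from 9.16 through 10.08 to 10.91. T84 alone among the latter reached the lowest undifferentiated tumor. The difference was 1.54 ± 0.254, or 2.91-fold (adjusted p = 0.00128, limma), and for the chromosome 19 probe it was 1.37 ± 0.216, or 2.58-fold (adjusted p = 0.00094), without overlap. The third probe, A_11_P172033, did not overlap either, at 8.36 to 8.75 against 5.81 to 8.26, but its adjusted p was 0.0234.

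Between the predicted classes the differences of the same probes were under 2-fold. The difference was 0.95 ± 0.144 (1.94-fold, adjusted p = 0.000114) for A_11_P052931 and 0.88 ± 0.151 (1.84-fold, adjusted p = 0.000412) for the chromosome 19 probe, so that both passed the test and fell short of the 2-fold limit. For A_11_P172033 it was 0.60 ± 0.264 (adjusted p = 0.192). Tested directly, the class difference of A_11_P052931 was 0.587 ± 0.269 larger in the reference tumors, with p = 0.0342 and an adjusted p of 0.322 over all probes in limma, which does not pass. The chromosome X probe did not differ in either comparison (-0.12 ± 0.253 and -0.11 ± 0.246, adjusted p = 0.821 and 0.855).

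**Figure D3:**
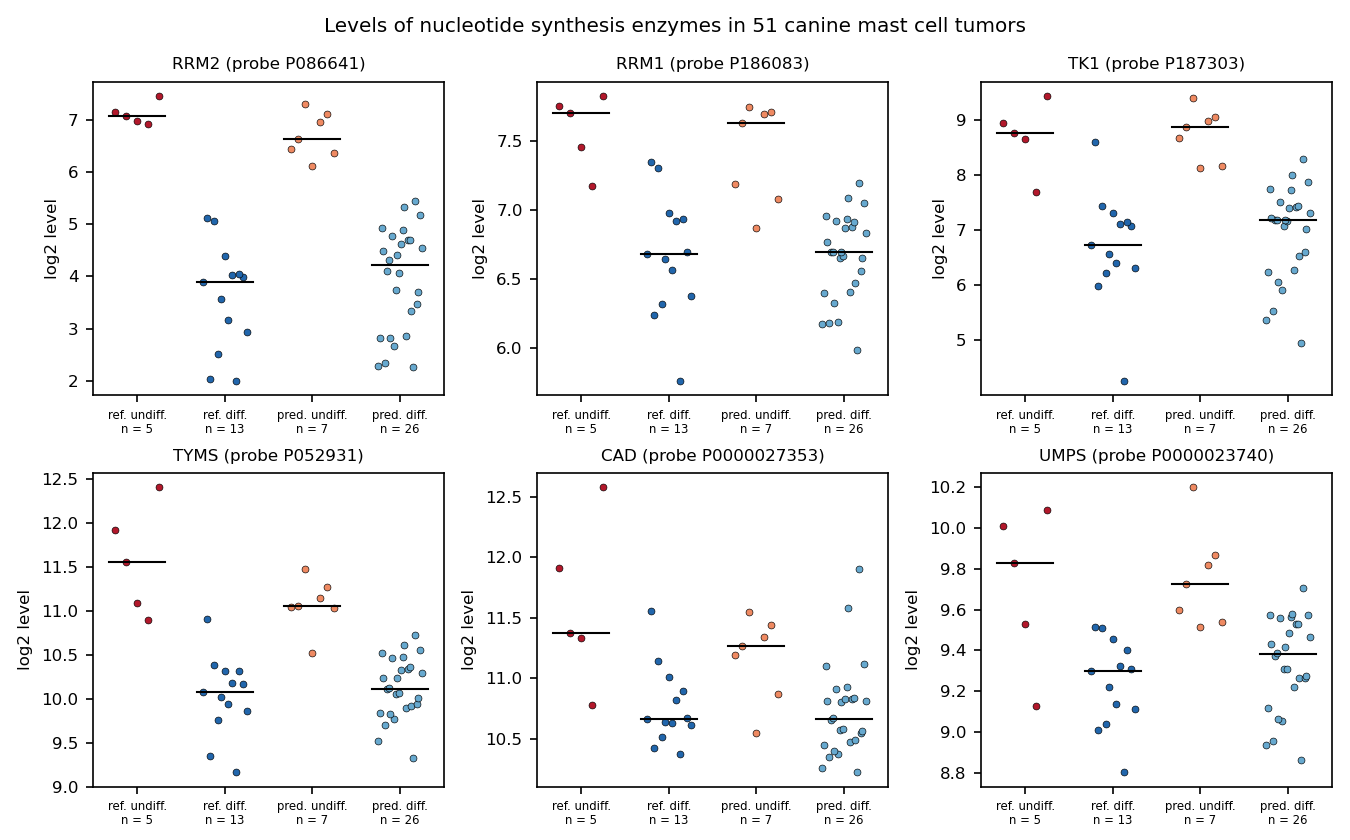
Level (log2, y axes) of 1 probe each of RRM2, RRM1, TK1, TYMS, CAD and UMPS in the 4 groups of tumors (x axes), with 1 point per tumor and a bar at the group's median. In RRM2 all 12 undifferentiated tumors, at 6.10 to 7.46, lie above all 39 differentiated ones, whereas in the other panels the groups overlap.

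RRM1, the large subunit, differed by less than 2-fold on both probes. With the brighter probe the reference undifferentiated tumors ran from 7.17 through 7.70 to 7.83 and the differentiated ones from 5.76 through 6.68 to 7.35, with 4 of the 5 undifferentiated tumors above every differentiated one. The difference was 0.91 ± 0.209 (1.87-fold, adjusted p = 0.0129, limma) and 0.54 ± 0.175 with the other probe (adjusted p = 0.0654). Between the predicted classes both probes passed the test, at 0.76 ± 0.139 (adjusted p = 0.000905) and 0.56 ± 0.127 (adjusted p = 0.00688), below 2-fold.

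The enzymes that act before the deoxyribonucleotide steps, and DTYMK, showed small differences. CAD was 0.83 ± 0.227 higher in the reference undifferentiated tumors (1.78-fold, adjusted p = 0.0324, limma), at 11.91 in T90 and 12.58 in LM0 but 10.78 in T9, where it was near the differentiated median of 10.66. Leaving out T9 raised this difference to 1.03 (adjusted p = 0.00965). With each tumor left out in turn it lay between 0.58 and 1.03, with adjusted p up to 0.101. In the predicted tumors CAD differed by 0.44 ± 0.161 (adjusted p = 0.102). UMPS differed by 0.48 ± 0.146 (adjusted p = 0.0525) and 0.41 ± 0.102 (adjusted p = 0.0126), and DTYMK by 0.28 ± 0.149 (adjusted p = 0.263) and 0.30 ± 0.103 (adjusted p = 0.0807), in the reference and the predicted tumors. None of these 3 genes was called in either comparison, and their groups overlapped.

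Slides and scan sessions held unequal numbers of the classes. In each of the 4 sessions that held both reference classes, a single undifferentiated tumor stood against 1 to 4 differentiated ones. All probes of RRM2, TK1, RRM1 and CAD and the 3 TYMS probes other than that of chromosome X were higher in that undifferentiated tumor, RRM2 by 3.26 to 5.45. The largest of these values is T9 against T48 alone, and the RRM2 level of T48, 2.003, was the lowest of the differentiated tumors. In the 4 sessions that held both predicted classes, with 1 to 3 undifferentiated tumors each, RRM2 was higher by 2.37 to 3.59. All probes of TK1, RRM1, CAD, DTYMK and UMPS and the TYMS probes A_11_P052931 and A_11_P051996 were also higher in each of them. The other TYMS probes were not, with A_11_P172033 at -0.68 in a session with 1 undifferentiated tumor. With the session as a fixed block, 2 of the 5 reference calls held, those of RRM2 and of the chromosome 19 probe of TYMS, and 2 of the 4 predicted calls, those of RRM2 and of the TK1 probe A_11_P080761. With the slide as a fixed block, which few tumors of both classes shared, no member was called in either comparison, RRM2 being at 4.11 (adjusted p = 0.0293) and 2.53 (adjusted p = 0.0125).

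A few other genes of pyrimidine metabolism were called. Of 35 measured genes in a list of 48, 2 were called higher and 0 lower in the reference undifferentiated tumors, beside 0.975% of all probes called higher and 0.871% lower, and the median difference was 0.0499. DCK, the kinase that salvages deoxycytidine, was 2.30 ± 0.26 higher (adjusted p = 6.24e-05, limma) and DCTPP1, which removes excess dCTP, 1.25 ± 0.217 (adjusted p = 0.00184). In the predicted tumors 4 of the 35 were called higher, beside 0.741% of all probes, with a median difference of 0.0999: DCK again by 1.72 ± 0.305, UCK2, a uridine and cytidine kinase, by 1.19 ± 0.15, NME1, a nucleoside diphosphate kinase, by 1.28 ± 0.218, and UPP1, which cleaves uridine, by 1.06 ± 0.225. Their adjusted p-values were 0.000608, 1.4e-05, 0.000397 and 0.00369. RRM2B, the small subunit used outside S phase, did not pass in either (0.31 and -0.12, adjusted p = 0.279 and 0.752). DHODH, which acts between CAD and UMPS, was at 0.60 and 0.12 (adjusted p = 0.134 and 0.698).

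The folate cycle supplies the cofactor of TYMS. Of 20 measured genes of 22, 1 was called higher and 0 lower in either comparison, beside 1.85% and 1% of all probes called in either direction, the mitochondrial enzyme MTHFD2, by 1.47 ± 0.211 (adjusted p = 0.000447) in the reference and 1.15 ± 0.189 (adjusted p = 0.000252) in the predicted tumors. Of 26 measured purine genes of 32, 1 was called higher and 1 lower in the reference tumors and 0 in the predicted ones, beside the same shares of all probes. The higher one, AK7, an adenylate kinase, was well above background in 3 of the 5 undifferentiated and 0 of the 13 differentiated tumors. With the differentiated tumors set to the lowest level detected on their arrays, it was 1.98-fold higher. The undifferentiated tumors without detection kept their measured levels, so that this fold is not a lower limit. In the predicted tumors AK7 differed by 0.63 ± 0.561 (adjusted p = 0.614, limma). The lower one, GDA, a guanine deaminase, fell by 2.58 (SE 0.345, adjusted p = 0.000266), a size that rests on levels near background, since GDA was well above background in 1 of the 5 undifferentiated and all 13 differentiated tumors. It was at -0.64 (adjusted p = 0.511) in the predicted tumors. The median difference of the purine list was 0.262 and 0.208, and that of the folate list 0.325 and 0.318.

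Genes of cell division, by contrast, were called in most cases. The list has 31 genes, of which 25 were measured. In the reference comparison 20 of the 25 were calls upward and 0 downward, beside 0.975% and 0.871% of all probes. Between the predicted classes 16 were calls upward and 0 downward, beside 0.741% and 0.261% of all probes. The median difference of the list was 1.75 and 1.20. Because the mitotic index was a criterion for the reference classes, the difference of such genes between them is not independent of that choice. CDC2, the kinase that drives entry into mitosis, was well above background in all tumors of both comparisons and differed by 3.46 ± 0.456 and 2.28 ± 0.325 (adjusted p = 0.000235 and 5.81e-05). The mean level of this list lay between 9.26 and 10.09 in the reference undifferentiated tumors and between 7.16 and 8.66 in the differentiated ones, without overlap, and between 8.95 and 9.48 against 7.12 and 8.51 in the predicted ones. It moved with the class as RRM2 did, and its part in the differences of the members was not tested. CCNB2, a gene of this list, is one of the study's markers of the predicted classes. T84, the differentiated tumor with the highest level on all 3 TK1 probes and on all TYMS probes but that of chromosome X, also ranked 1 of the 39 differentiated tumors in the mean level of the list, at 8.66.

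**Figure D4:**
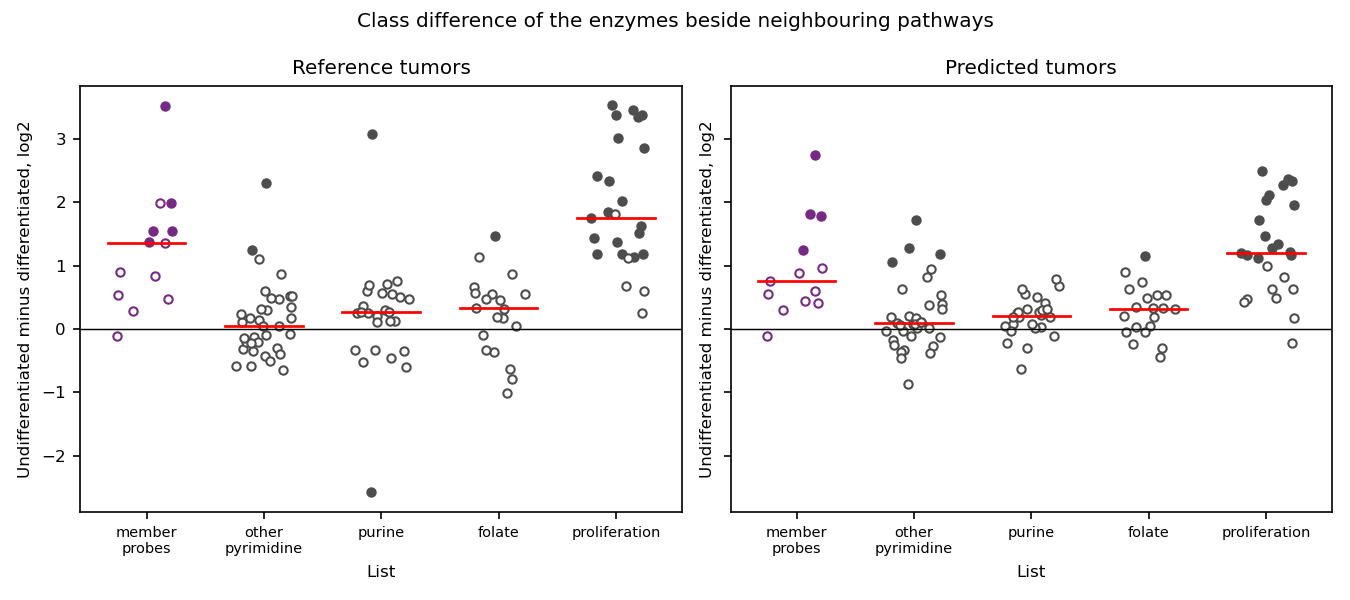
Difference between undifferentiated and differentiated tumors (y axes, log2) of the 13 member probes and, with 1 probe per gene, of 4 gene lists (x axes), in the reference (left) and predicted (right) tumors. Filled points are called and the red bar is the list's median, which lies at 1.35 and 0.757 for the members, 1.75 and 1.20 for the proliferation list and between 0.0499 and 0.325 for the other lists. The members' median counts every probe of a gene, so that TK1 and TYMS weigh more in it, and it is not a like measure to those of the lists.

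Other cells were present in the samples. The neutrophil genes S100A8 and S100A9 (2 of 3 listed markers measured) were 4.27 and 4.74 higher in the predicted undifferentiated tumors (adjusted p = 0.00974 and 0.00439, limma), and their mean level ran from 10.71 to 17.55 in those tumors and from 7.91 to 17.06 in the differentiated ones. In the reference tumors the mean ran from 8.38 to 17.01 and from 7.19 to 15.25, and neither gene passed. CSF1R, a macrophage receptor, fell by 1.92 in the reference undifferentiated tumors (adjusted p = 0.00628), and CD14 was 1.70 higher in the predicted ones (adjusted p = 0.000341). The 4 macrophage markers measured did not share a direction: 1 was higher and 3 lower in the reference tumors, with CD14 at 0.67, and 2 were higher and 2 lower in the predicted ones, with CSF1R at -0.30. None of the 4 mast cell, 6 fibroblast, 4 epidermis, 5 T cell, 4 B cell, 3 endothelium, 2 muscle and 2 adipocyte markers measured was called in either comparison, and the 2 eosinophil markers had no probe. All 4 epidermis markers were nonetheless lower in the reference undifferentiated tumors (median difference -2.28) and all 4 higher in the predicted ones (2.31), and all 4 mast cell markers were lower in the latter (-0.654), each without passing the test. The part of these cells in the differences of the members was not tested.

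Among the 39 differentiated tumors the enzymes varied to unlike extents. On the probes measured well above background in all of them, the SD on the log2 scale lay between 0.562 and 0.894 for the 3 TK1 probes (5.38-fold to 20.1-fold from the lowest to the highest tumor) and between 0.374 and 0.668 for the 3 TYMS probes (3.36-fold to 6.06-fold), beside a median SD of 0.465 over all probes, so that the probes of these genes overlapped in their spread. RRM1 had an SD of 0.313 and 0.355, CAD 0.362, DTYMK 0.215 and UMPS 0.226. For RRM2 the SD was 1.01, but it was well above background in only 4 of the 13 reference and 11 of the 26 predicted differentiated tumors, so that its spread and its lowest levels include background. Tumor T48 had the lowest RRM2 and the lowest RRM1 of the 39 with both RRM1 probes, and T134 had the lowest TK1 with A_11_P0000016427 and the lowest TYMS with 2 probes. In T48 and T134 the mean level of the proliferation list, at 7.31 and 7.39, ranked 35 and 33 of 39.

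Levels of RRM2, TK1, RRM1 and TYMS were correlated in 4 pairs within the differentiated class, of 21 pairs of enzymes with a median r of 0.22. With the brightest probe of each of the 7 genes, which for TYMS is the probe on chromosome 19, the 21 pairs were compared in each class, with 2-sided permutation p-values adjusted over the 21 pairs. Over the 39 differentiated tumors, RRM2 and TK1 gave Pearson r = 0.72 and Spearman rho = 0.753, RRM1 and RRM2 r = 0.70 and rho = 0.689, and TK1 and TYMS r = 0.621 and rho = 0.487. The permutation p of r was 1e-05 for the first pair and for the second, the smallest that the permutations can give, and 8e-05 for the third, or 0.000105, 0.000105 and 0.00056 adjusted; for rho it was 1e-05, 2e-05 and 0.00176, or 0.00021, 0.00021 and 0.0107 adjusted. Without the 2 tumors farthest from the median in the first gene of the pair, r was 0.755 for RRM2 with TK1, 0.63 for RRM1 with RRM2 and 0.568 for TK1 with TYMS. RRM2 and TYMS reached r = 0.409 and rho = 0.418 (permutation p = 0.00899 and 0.00871, adjusted p = 0.0472 and 0.0366), and r = 0.452 without the 2 farthest tumors. These were the 4 pairs past an adjusted p of 0.05 by r, and 5 passed by rho. The pairs with RRM2 rest in large part on levels near background, since RRM2 was well above it in only 4 of the 13 reference and 11 of the 26 predicted differentiated tumors. With the chromosome 7 probe A_11_P052931 in place of that on chromosome 19, RRM2 and TYMS gave r = 0.557 and rho = 0.567 (permutation p = 0.00017 and 0.00025, adjusted p = 0.000892 and 0.00131), and r = 0.569 without the 2 farthest tumors, and 7 pairs passed by r.

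No pair with CAD, UMPS or DTYMK passed in the differentiated tumors with these probes and this scaling, although some r were as high as those of RRM1 with TK1 (0.375) and TYMS (0.352): r was 0.385 for DTYMK with RRM1, 0.382 for DTYMK with RRM2, 0.363 for CAD with RRM1 and 0.337 for UMPS with TYMS. The pairs DTYMK with RRM1 and UMPS with TYMS passed by r with 75th percentile scaling (adjusted permutation p = 0.0379 and 0.0495) and with session means removed (0.0331 and 0.0453). DTYMK with RRM2 passed by r with 75th percentile scaling (adjusted permutation p = 0.0439). With the chromosome 7 probe of TYMS, DTYMK passed by r with RRM1 and with RRM2 (adjusted permutation p = 0.0472 for both), where their r were unchanged and only the adjustment differed. CAD with TK1 gave r = -0.195 and rho = -0.0715 (permutation p = 0.233 and 0.666, adjusted p = 0.408 and 0.777), and r = -0.0795 without the 2 farthest tumors. CAD with UMPS, the enzymes at the start and the end of UMP synthesis, gave r = 0.22 and rho = 0.11 (permutation p = 0.181 and 0.503, adjusted p = 0.345 and 0.638), and r = 0.104 without the 2 farthest. Over the 12 undifferentiated tumors, DTYMK and UMPS were the only pair past the threshold, with r = 0.809 and rho = 0.867 (permutation p = 0.00157 and 0.00071, adjusted p = 0.033 and 0.0149), and r = 0.874 without the 2 farthest. That pair gave r = 0.0143 and rho = -0.0504 in the 39 differentiated tumors (permutation p = 0.93 and 0.76, both 0.93 and 0.84 adjusted), and r = -0.149 without the 2 farthest; the difference between the classes was not tested. With the mean of each scan session removed, 0 pairs passed by r and 1 by rho in the undifferentiated tumors, DTYMK with UMPS (rho = 0.804, adjusted permutation p = 0.0445), and 8 by r and 7 by rho in the differentiated ones. T57, T90, T104 and LM0 were each the only undifferentiated tumor of their session. Their values then carried no variation, so that this setting cannot decide whether a pair holds in the undifferentiated class.

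**Figure D5:**
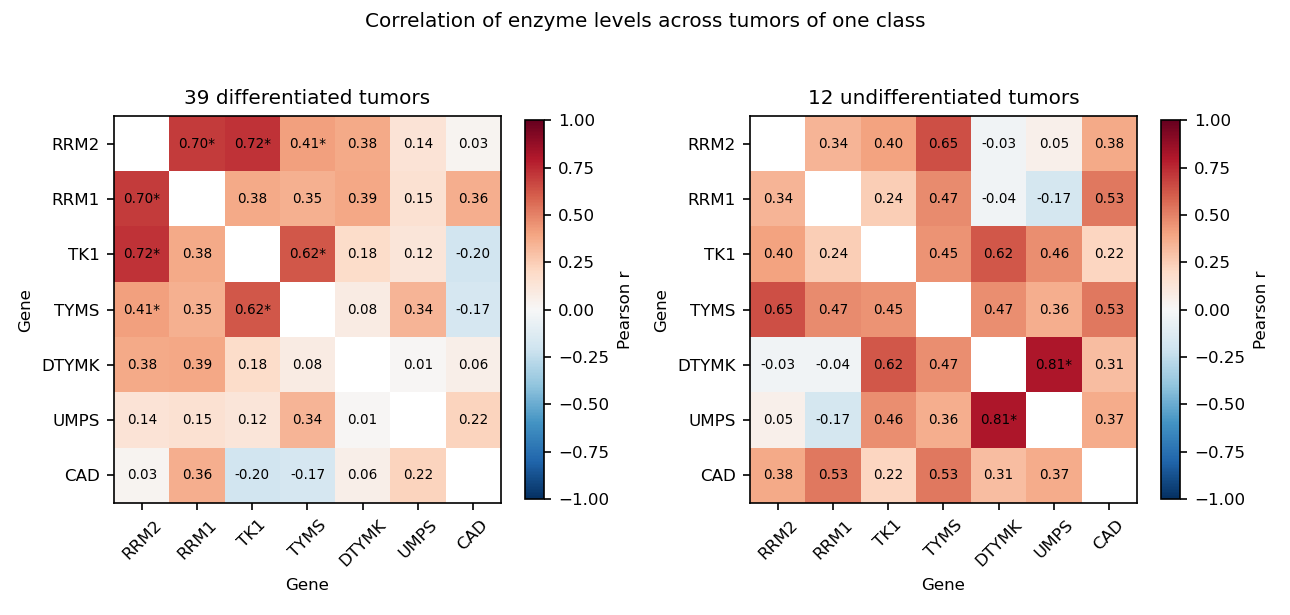
Pearson r between the levels of the 7 enzymes (both axes: gene) over the 39 differentiated (left) and the 12 undifferentiated (right) tumors, with an asterisk at an adjusted permutation p under 0.05. RRM2, RRM1, TK1 and TYMS hold the 4 marked pairs on the left, up to r = 0.72, and DTYMK with UMPS the single one on the right, at r = 0.809. In most of the differentiated tumors RRM2 was near background.

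Among 10058 other gene symbols with a probe that 26 or more of the 51 arrays measured well above background, the genes whose levels were most like RRM2 over the 39 differentiated tumors were NEK2, NUF2, SHCBP1, CCNA2 and NDC80, with r between 0.869 and 0.886. RRM2 itself was well above background in only 4 of the 13 reference and 11 of the 26 predicted differentiated tumors, so that these r include many levels near background. The filter counted arrays of both classes and does not ensure detection in the differentiated tumors. For TK1 they were DIAPH3, KIF15, TTK, NUF2 and CCNB2, at r = 0.767 to 0.827. NUF2 and CCNB2 are markers of the predicted classes. For TYMS the values were lower, at r = 0.669 to 0.714, for IFT57, FANCD2, LSM14A, ABHD11 and UBE2T. These r are descriptions over tumors that share arrays and normalization, and no p is given.

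In the order of the group medians, RRM2 ran from the reference undifferentiated (7.06) through the predicted undifferentiated (6.63) and predicted differentiated (4.22) to the reference differentiated tumors (3.88), and TYMS with A_11_P052931 in the same order (11.56, 11.06, 10.11 and 10.08). TK1 with A_11_P187303 was highest in the predicted undifferentiated tumors (8.87), followed by the reference undifferentiated (8.76), the predicted differentiated (7.18) and the reference differentiated tumors (6.72). In each case the 2 undifferentiated groups overlapped in their levels, and so did the 2 differentiated groups. None of the 13 probes had a class difference that differed between reference and predicted tumors (adjusted p under 0.05, passed by 0.0963% of all probes), and 1 had an unadjusted p under 0.05 (13.7% of all probes), A_11_P052931 above.

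Sex and age left no call on the members. With the group as a covariate, all 13 probes were lower in the 30 female than in the 19 male dogs, by 0.045 to 0.526, and RRM2 by 0.526 ± 0.269 (p = 0.0563, adjusted p = 0.799 in limma). None passed an adjusted p of 0.05, as 0.0642% of all probes did, and 1 had an unadjusted p under 0.05 (5.64% of all probes), RRM1 (0.0322). Over the 49 dogs of known age, 12 of the 13 probes had a negative slope, between -0.0136 and -0.0569 per year, none with an adjusted p under 0.05 and 1, RRM1, with an unadjusted p under it (0.0423; 2.71% of all probes). No probe on the array passed for age (0%), with 1183 at an unadjusted p under 0.05. For 8 of these probes the sign of the slope depended on the group covariate.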

How the data were processed

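RNA of 51 canine cutaneous MCTs was hybridized with 1 dye to Agilent Canine V2 arrays. The deposited scanner files hold spot intensities, which the authors extracted and background-subtracted with Agilent Feature Extraction. From these, control spots were dropped, spots flagged as feature outliers (2 to 35 an array) were set to missing, log2 processed signals were quantile-normalized over the 51 arrays as in the study, and spots of a probe were averaged, which left 43603 probes. Classes were compared with limma 3.58.1 in R 4.3.3, in the reference and the predicted tumors separately, with Benjamini-Hochberg adjustment over all probes. Calls needed a change of 2-fold or more together with an adjusted p below 0.01; the difference between comparisons, sex and age were called at an adjusted p under 0.05. The number of arrays limits the precision. The labels give cases but not classes, which were taken from the study. Each array is a separate tumor. Correlations used 100000 permutations. Genes were named from the probe's gene name or description, and 2 probes described by a similar enzyme name, 1 of another enzyme and 1 of a bacterial protein, were set aside. All members are named, other genes of a list where they were called or act beside a member, and the 5 genes most like RRM2, TYMS and TK1. Members, lists and tests were chosen with earlier results of these data known. Fits were tested on simulated data. Alternatives to scaling, background, filters, batches, covariates, thresholds and tumors were tried, and the authors' normalized table was used as one of them. The values of 1 gene of these lists are not reported here.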

Additional observations from a re-analysis of the deposited data

How the results depend on the processing

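Over 34 alternatives in the reference and 49 in the predicted tumors, every member probe but the TYMS probe of chromosome X kept the direction of its class difference. The number of members called, 5 in the reference tumors, was 2 with the scan session and 0 with the slide as a fixed block, and 3 to 6 with each tumor left out, with 3 without T90 and 3 without LM0. In the predicted tumors it was 4, against 2 with normexp, 2 with the session block, 0 with the slide block, 2 with sex as a covariate, 8 without the fold limit and 4 to 5 with each tumor left out. Over all probes the 805 reference calls became 416 with normexp, 345 with the session block, 54 with the slide block, 1757 at an adjusted p under 0.05, 2055 by the methods' t-test without adjustment (646 with it) and 559 to 1185 with a tumor left out. The 437 predicted calls became 219, 171 and 86 with the same 3 settings, 246 with age as a covariate, 832 at an adjusted p under 0.05, 906 without the fold limit, 1068 by the methods' t-test without adjustment (390 with it) and 212 to 547 with a tumor left out, the lowest without predicted undifferentiated replicate 5. Fits with sex or age as a covariate left out the tumors whose sex or age is not given. The 42 probes whose class difference differed between the comparisons became 19 with 75th percentile scaling and 8 with the session block.

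Signs changed only where nothing was called. The TYMS probe of chromosome X turned from -0.12 to 0.0412 with spots not found or with a flagged background set to missing and lay between -0.246 and 0.0670 with each tumor left out in the reference tumors, and its difference between the comparisons to 0.22 with the session block, where that of RRM1 (A_11_P186733) turned to 0.0396. Without the group covariate the age slope was 0.000858 for RRM1 (A_11_P186733), 0.0852 for RRM2, 0.0293, 0.0287 and 0.0240 for TK1, and 0.0182, 0.0189 and 0.0248 for TYMS, all with an adjusted p of 1. Of the 21 pairs, 4 were correlated by Pearson's r in differentiated tumors, against 8 with 75th percentile scaling, 8 with session means removed and 7 with the chromosome 7 probe of TYMS. In undifferentiated tumors it was 1 pair, against 0 by r with session means removed, where that pair passed by rho. Some undifferentiated tumors were alone in their session, so that the last setting cannot decide whether the pair holds. The settings on missing spots, on the chromosome 7 probe and on leaving out predicted differentiated tumors were chosen after seeing the data. The causes of these shifts were not tested, except that the slide block rests on 2 reference and 5 predicted slides that held both classes. RRM2 was well above background on 27 of 51 arrays, so that its level in most differentiated tumors is near the limit of the array. No paired analysis was possible because the replicate numbers follow the order of deposit and pair no tumors.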
